A study of Mus musculus with 30 samples.

Results

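The Wnt ligands, their receptors and their secreted modulators were followed in RNA-seq libraries of CT-26 and Colon 26, 2 carcinoma cell lines of the mouse colon from the BALB/c strain. The 50 genes were chosen by name: 18 ligands, 10 frizzled receptors, 5 co-receptors, 4 dickkopf genes, 6 other secreted inhibitors, 4 R-spondins and 3 R-spondin receptors. All 50 were matched to exactly 1 of the 53431 gene identifiers of the deposited table. Libraries were made from 3 cultures of each line and from 4 tumors of each model near 100, 400 and 800 mm3, 30 libraries in 8 groups. The tumors had been grown subcutaneously, in the right flank, in female mice of the same strain, whose age is not given in the sources used here. The treatment text also describes antibody dosing, but no tumor carries an antibody in its label, and all were taken to be without treatment, which was not checked. A tumor library holds RNA of the injected cells and of host cells, whereas a culture holds the injected line alone. The question was therefore which of these genes were expressed by the cultured tumor cells and which appeared only in the tumor tissue.

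Wnt ligands are secreted, lipid-modified proteins. Through a frizzled receptor together with Lrp5 or Lrp6 they stabilise β-catenin, which drives transcription with Tcf and Lef factors, and through Ror1, Ror2 or Ryk they act without β-catenin. Dickkopf proteins act at the co-receptors, Sfrp proteins, Frzb and Wif1 bind ligands outside the cell, and R-spondins act through Lgr4, Lgr5 and Lgr6 to keep frizzled receptors at the surface. In the colon, Wnt signals maintain the stem cells of the crypt, and part of the ligands and modulators come from the surrounding mesenchyme.

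The 30 libraries held 21384730 to 39722586 counts each, and levels are given as CPM, that is, counts scaled to the TMM-normalised library size. Nothing says that the 3 cultures of a line were grown separately, so p-values between cultures measure the spread between these samples, which may be technical. Where tumors and cultures were fitted together, the spread of a gene was estimated over both. Those p-values thus rest on the spread between tumors as well, and do not measure that between independent cultures. The numbers of the libraries fall into 3 series, 1 for all tumors and 1 for the cultures of each line, so series, tissue and line cannot be told apart in any comparison with a culture. The 8 colon epithelial markers summed to 41.0 to 42.5 CPM in CT-26 cultures, nearly all of it Krt20 and Krt18, and to 11.3 to 12.04 CPM in Colon 26 cultures, nearly all of it Cdx2 and Krt20, whereas Cdx1, Cdh1 and Epcam were at no more than 3 counts in every culture. Both lines expressed part of the fibroblast list, whose 11 genes summed to 1175 to 1252 CPM in CT-26 and 1377 to 1458 CPM in Colon 26 cultures. The fibroblast markers Lum, Thy1 and Dpt were at no more than 3 counts in every culture. Of the 24 tumors 4 stood apart in their host markers. Skeletal muscle genes summed to 1407 CPM in Colon 26 tumor 2 of 100 mm3 and 2890 CPM in Colon 26 tumor 1 of 400 mm3, keratinocyte genes to 83.3 CPM in CT-26 tumor 4 of 800 mm3, and leukocyte genes to 236 CPM in CT-26 tumor 3 of 400 mm3, whose lowest other tumor of that size had 546 CPM. Results that changed without these tumors are named where they occur.

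At a mean of at least 1 CPM, 16 of the 50 genes were expressed in CT-26 cultures and 18 in Colon 26 cultures. The cultures of both lines shared 15 of them: Wnt9a, Wnt10a and Wnt10b among the ligands, Fzd2 to Fzd7 among the receptors, Lrp5, Lrp6 and Ryk, and Dkk2, Lgr4 and Lgr6. Wnt2b was expressed in CT-26 cultures only, and Wnt5a, Wnt5b and Wnt6 in Colon 26 cultures only. Of the 50 genes 26 had at most 3 counts in each of the 6 cultures. In tumors 20 genes were expressed in CT-26 and 24 in Colon 26. Expressed in tumors of a model but in neither culture were 6 genes: Fzd1, Dkk3, Sfrp1 and Sfrp2 in both models, and Ror2 and Sfrp4 in Colon 26 alone, where the CT-26 tumors had a mean under 1 CPM. In neither culture nor tumors were 25 genes expressed, 7 of which had at most 3 counts in every one of the 30 libraries. With a limit of 0.5 CPM the same numbers were expressed in the cultures, and with 2 CPM 15 in each line.

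**Figure D1:**
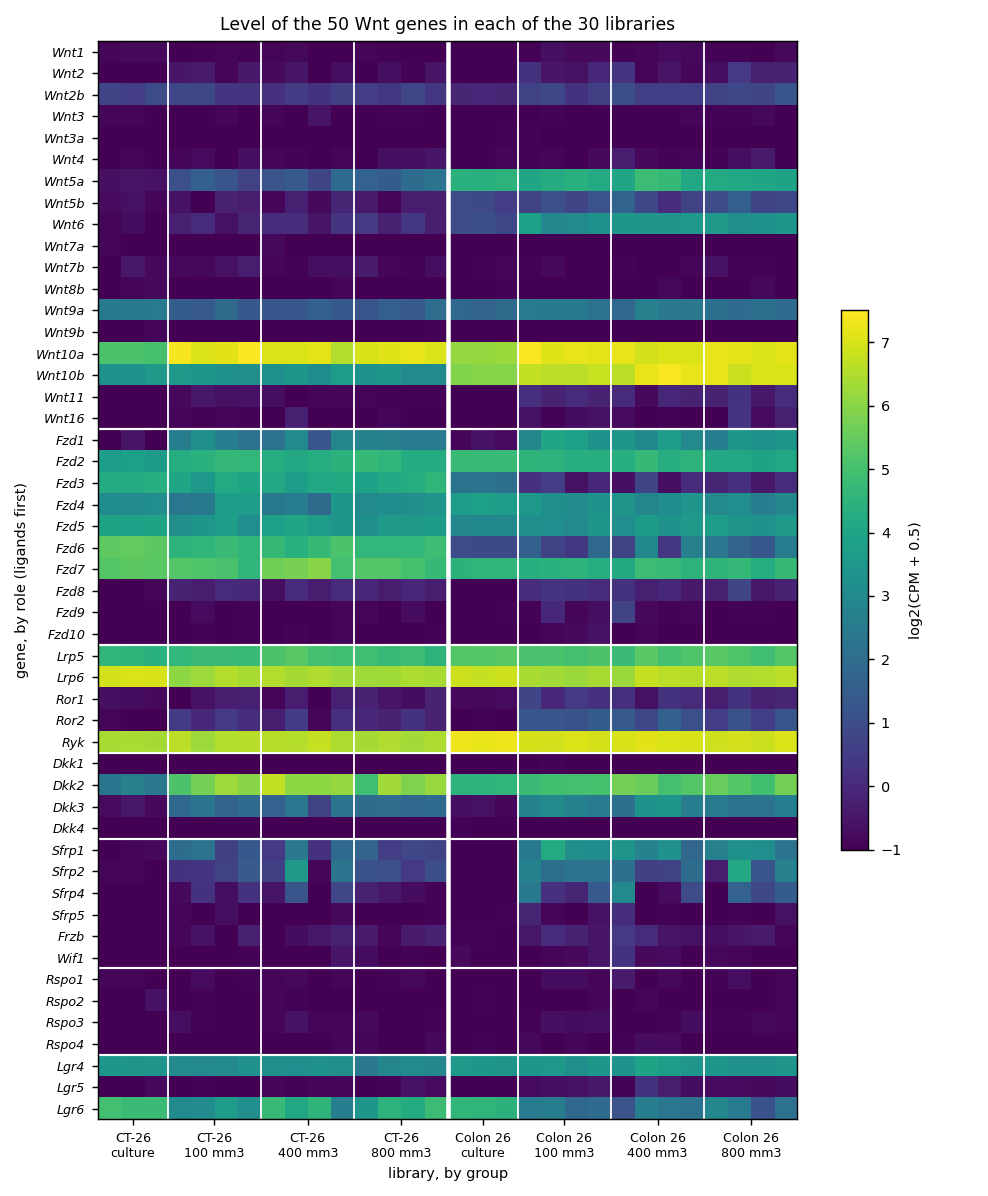
Heat map of log2(CPM + 0.5) of the 50 genes (rows, ordered by role) in the 30 libraries (columns, ordered by group; the wide white line parts CT-26 from Colon 26). The row of Wnt10a was brighter in tumors than in cultures, the rows of Fzd1, Dkk3 and Sfrp1 were dark in the 6 culture columns, and the rows of the R-spondins were dark throughout.

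Promoter sequences are shown for a few genes whose level differed between the lines or between culture and tumor, chosen with these levels known. RefSeq (GRCm38.p6) gave a promoter for 34 of the 50 genes, 37 in all. Over the window from 250 bases before to 50 bases after the start, these held a median of 26 CG dinucleotides, against 7 over all 32851 promoters of the table. The 250 bases before the start are given for Wnt6 and Wnt10b, ligands that differed between the lines, and for Fzd1 and Ror2, receptors that were near absent in culture and present in tumors. They lie at chr1:74771642-74771891 on the plus strand for Wnt6, and on the minus strand at chr15:98778151-98778400 for Wnt10b, chr5:4758217-4758466 for Fzd1 and chr13:53286125-53286374 for Ror2. They are written 5′ to 3′ on the strand of the gene, with each CG dinucleotide in capitals.
Wnt6: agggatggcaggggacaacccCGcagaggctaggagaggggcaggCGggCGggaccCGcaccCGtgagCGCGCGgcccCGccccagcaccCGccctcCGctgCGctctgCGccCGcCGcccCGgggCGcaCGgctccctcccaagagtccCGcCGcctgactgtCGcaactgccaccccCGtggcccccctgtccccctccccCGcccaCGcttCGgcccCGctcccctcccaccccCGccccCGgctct
Wnt10b: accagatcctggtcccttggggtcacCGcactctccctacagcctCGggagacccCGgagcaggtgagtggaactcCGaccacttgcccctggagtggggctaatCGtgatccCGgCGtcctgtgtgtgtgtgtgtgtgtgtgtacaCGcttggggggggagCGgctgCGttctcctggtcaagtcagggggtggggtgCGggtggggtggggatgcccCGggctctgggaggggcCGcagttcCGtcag
Fzd1: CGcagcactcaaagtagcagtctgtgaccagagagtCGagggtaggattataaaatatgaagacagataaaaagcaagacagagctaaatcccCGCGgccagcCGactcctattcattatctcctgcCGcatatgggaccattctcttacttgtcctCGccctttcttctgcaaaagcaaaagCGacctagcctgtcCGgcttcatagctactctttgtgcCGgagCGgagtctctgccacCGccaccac
Ror2: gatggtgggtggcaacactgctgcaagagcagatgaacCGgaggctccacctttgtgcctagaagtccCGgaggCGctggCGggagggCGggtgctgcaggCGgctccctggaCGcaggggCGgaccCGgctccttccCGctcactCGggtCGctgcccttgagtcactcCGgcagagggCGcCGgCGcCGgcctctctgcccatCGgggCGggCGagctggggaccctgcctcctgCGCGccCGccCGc
These 4 stretches held 28, 14, 12 and 24 CG dinucleotides. The core of the Tcf and Lef motif, CTTTGA or CTTTGT on either strand, occurred in 29.7% of the member promoters and in 31.2% of all promoters over the same 300 bases.

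Among the ligands, Wnt10a led the transcripts per length in every group but 1. The FPKM of the 18 ligands summed to 19.3 ± 0.623 in CT-26 cultures and 63.4 ± 1.73 in Colon 26 cultures (SD, n = 3 each). In CT-26 cultures Wnt10a made up 65.1 to 70.0% of this sum and Wnt10b 19.2 to 24%. Colon 26 cultures were shared more evenly, with 47.4 to 48.0% for Wnt10a and 40.8 to 41.9% for Wnt10b. In CT-26 tumors of 100 mm3 the sum was 67.1 ± 7.56 and Wnt10a took 89.0 to 92.7% of it. In Colon 26 tumors of that size the sum was 116 ± 9.70, with 51.2 to 55.6% for Wnt10a and 34.2 to 39.1% for Wnt10b. Wnt10b had the highest mean FPKM in Colon 26 tumors of 400 mm3, at 58.0 ± 10.8 beside 53.8 ± 5.77 for Wnt10a (SD, n = 4), and these ranges overlapped.

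**Figure D2:**
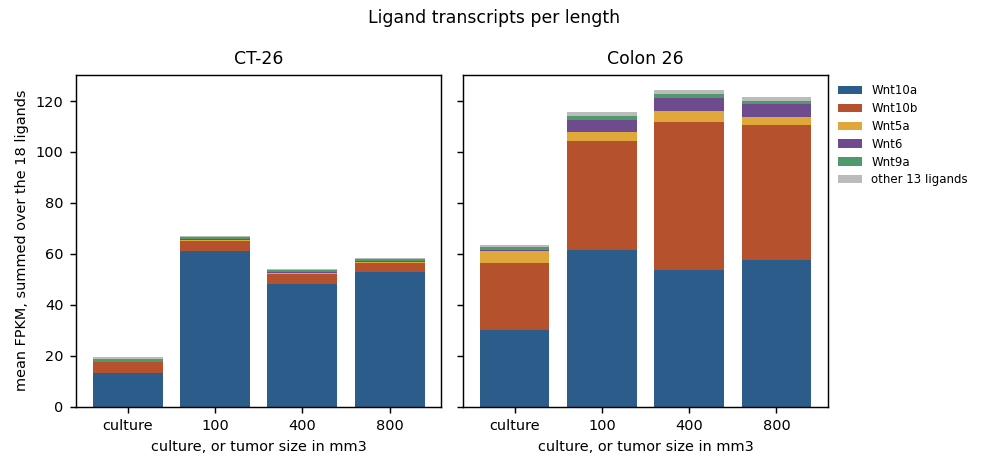
Stacked bars of the mean FPKM of the 18 ligands (y axis, linear from 0) in cultures (n = 3) and tumors of each size in mm3 (n = 4) of CT-26 and Colon 26. The sum rose from 19.3 in culture to 67.1 in tumors of 100 mm3 in CT-26, almost all of it Wnt10a, and from 63.4 to 116 in Colon 26.

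Colon 26 and CT-26 cultures were compared by edgeR's quasi-likelihood test, and a gene counted as called if its adjusted p was 0.1 or lower and its log2 fold change was 1 or more in size. SE is the standard error of a log2 fold change, and a positive model difference means a higher level in Colon 26. Of the 19 members tested 10 were called, 7 higher and 3 lower in Colon 26, where 22.9% of the 14334 genes tested were called (10.6% higher and 12.3% lower). The 7 were the ligands Wnt5a, Wnt5b, Wnt6, Wnt10a and Wnt10b, the receptor Fzd2 and the dickkopf gene Dkk2, and the 3 were Wnt2b, Fzd3 and Fzd6. The median log2 fold change was 2.64 over the 7 ligands tested and -0.84 over the 6 frizzled receptors tested, against 0.01 over all genes. The ligand median is a description, since Wnt5a, Wnt5b and Wnt6 had 12, 7 and 4 counts in all CT-26 cultures together and could enter the test only by being higher in Colon 26. With limma on log2(FPKM + 1), where changes of low genes come out smaller, Fzd2, Fzd3, Wnt2b, Wnt5b and Wnt6 were not called.

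Wnt10a was higher in tumors than in cultures in both models. It was at 33.2, 33.3 and 31.9 CPM in the CT-26 cultures and at 70.9, 71.3 and 73.5 CPM in the Colon 26 cultures. The 12 CT-26 tumors ranged from 90.4 to 173 CPM with a median of 134, and the 12 Colon 26 tumors from 120 to 173 CPM with a median of 141. Each tumor of either model was thus above each culture of both lines, and the tumors of the models overlapped. Tumors against cultures gave a log2 fold change of 2.02 (SE 0.12, adjusted p = 4.0e-09, edgeR) in CT-26 and of 0.93 (SE 0.07, adjusted p = 4.1e-08) in Colon 26, the latter under the minimum for a call. The model difference of 1.18 in culture (SE 0.04, adjusted p = 4.2e-14) was -0.04 at 100, 0.08 at 400 and 0.06 at 800 mm3. This change of the model difference, tested as an interaction over all 30 libraries, was -1.09 (SE 0.14, adjusted p = 3.4e-07, edgeR).

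Wnt6 lies 6193 bases before Wnt10a on the plus strand of chromosome 1 (GRCm38; Wnt6 from 74771892 to 74785322, Wnt10a from 74791516 to 74804179). It had 1, 3 and 0 counts in the CT-26 cultures and 1.46, 1.56 and 1.29 CPM in the Colon 26 cultures. Colon 26 tumors had 7.23 to 13.8 CPM (median 10.4), 12 of 12 above the Colon 26 cultures, a log2 fold change of 2.78 (SE 0.19, adjusted p = 8.9e-09, edgeR). CT-26 tumors had 0.156 to 0.833 CPM (median 0.467), 8.69 times their cultures with a 95% counting interval of 3.33 to 32.3. The interaction was -0.20 (SE 0.54, adjusted p = 0.81). It changed sign on FPKM, to 1.52 on log2(FPKM + 1) and 1.27 on log2(FPKM + 0.1), so that no direction can be given.

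Wnt10b, on the minus strand of chromosome 15 from 98770712 to 98778150, stayed apart between the models throughout. CT-26 cultures had 9.54, 9.13 and 11.7 CPM and CT-26 tumors 7.62 to 12.3 CPM (median 9.41), and these ranges overlapped (log2 fold change -0.09, SE 0.14, adjusted p = 0.58). Colon 26 cultures had 58.6, 61.0 and 62.2 CPM and Colon 26 tumors 97.0 to 171 CPM (median 120), with no overlap. The log2 fold change of the Colon 26 tumors was 0.99 (SE 0.12, adjusted p = 2.6e-06), just under the minimum. Leaving out 1 of 7 libraries brought it to at least 1: Colon 26 tumors 3 of 100 mm3, 1 and 4 of 400 mm3 and 2 and 3 of 800 mm3, and cultures 2 and 3, with values of 1 to 1.05, and so did leaving out the tumors that stood apart (1.06). The interaction was 1.09 (SE 0.18, adjusted p = 1.9e-05), and 0.99 without CT-26 tumor 3 of 400 mm3 and 0.96 without CT-26 culture 3. Its neighbour Wnt1, which starts 11706 bases further along the chromosome, reached at most 0.138 CPM in a library.

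The other expressed ligands moved in different directions. Wnt9a, a ligand of joint and haematopoietic development, was at 4.94, 4.97 and 5.22 CPM in CT-26 cultures and 1.82 to 3.58 CPM (median 2.14) in CT-26 tumors, each tumor below each culture (log2 fold change -1.12, SE 0.18, adjusted p = 5.8e-05, edgeR). Colon 26 cultures had 3.11, 2.89 and 3.29 CPM and Colon 26 tumors 3.20 to 6.07 CPM (median 4.39), a log2 fold change of 0.46 (SE 0.15, adjusted p = 0.012). The order of the models was thus reversed between culture, at -0.65, and tumors of 100 mm3, at 0.96, and the interaction was 1.58 (SE 0.24, adjusted p = 6.4e-06). In tumors of 400 mm3 Wnt9a was called higher in Colon 26, at 1.13, and without Colon 26 tumor 2 of that size it was at 1 and not called. It was called at 100 mm3 without CT-26 tumor 3 (1.16) or Colon 26 tumor 4 (1.03).

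Wnt2b showed a like pattern at lower levels. Its CT-26 cultures had 1.21, 0.965 and 1.42 CPM and its Colon 26 cultures 0.433, 0.457 and 0.439 CPM, without overlap. Tumors of both models overlapped, from 0.670 to 1.28 CPM (median 0.865) in CT-26 and 0.674 to 1.88 CPM (median 1.08) in Colon 26. The interaction was 1.75 (SE 0.33, adjusted p = 8.9e-05, edgeR). For Wnt5a, a ligand that signals through Ror2, cultures had 0.140, 0.186 and 0.167 CPM in CT-26 and 21.1, 20.4 and 21.8 CPM in Colon 26. All 12 CT-26 tumors, at 1.06 to 4.24 CPM (median 2.27), were above their cultures (log2 fold change 3.73, SE 0.43, adjusted p = 2.1e-06), whereas Colon 26 tumors, at 14.8 to 27.8 CPM (median 17.1), overlapped theirs (log2 fold change -0.22, adjusted p = 0.16). The interaction of Wnt5a was -3.95 (SE 0.44, adjusted p = 4.1e-08). Wnt5b had at most 0.428 CPM in any CT-26 library, and in Colon 26 was at 1.43, 1.35 and 0.952 CPM in culture and 0.554 to 2.76 CPM (median 1.25) in tumors, with an interaction of -0.87 (SE 0.88, adjusted p = 0.46).

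**Figure D3:**
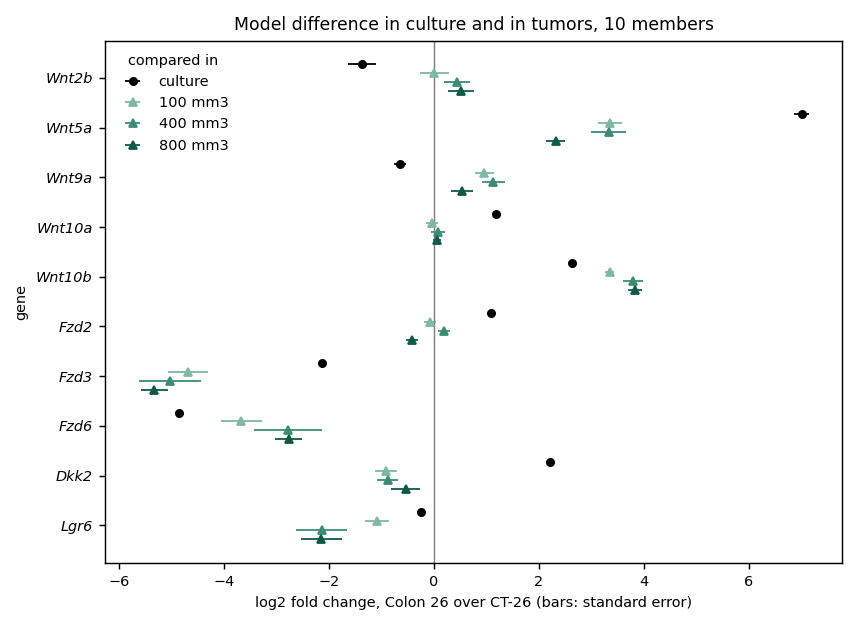
Log2 fold change of Colon 26 over CT-26 (x axis, bars are standard errors) in cultures (3 against 3) and in tumors of each size (4 against 4) for the 10 genes with a called interaction. Wnt10a, Fzd2, Wnt2b and Dkk2 lay far from 0 in culture and nearer 0 in tumors, and Dkk2 and Wnt9a were on opposite sides of 0, whereas Fzd3 and Lgr6 lay further from 0 in tumors.

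The frizzled receptors fell into a part shared by both lines and a part that differed. Summed over the 10 receptors, FPKM was 27.0 ± 0.283 in CT-26 and 16.5 ± 0.393 in Colon 26 cultures (SD, n = 3), and 24.5 ± 2.33 and 16.9 ± 0.817 in tumors of 100 mm3 (SD, n = 4). Fzd2 and Fzd7 were among the leading receptors of both lines, with 12.1 to 13.4% and 30.5 to 32.5% of the summed FPKM in CT-26 cultures and 44.3 to 45.8% and 30.1 to 32.4% in Colon 26 cultures. Fzd6 took 35.9 to 37.4% in CT-26 cultures and 2.01 to 2.27% in Colon 26 cultures.

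Fzd6, a receptor of planar cell polarity signalling, was at 41.2, 43.8 and 40.8 CPM in CT-26 cultures and at 1.46, 1.40 and 1.32 CPM in Colon 26 cultures (log2 fold change -4.86, SE 0.07, adjusted p = 8.5e-18, edgeR). In Colon 26 its level varied widely between tumors of the same size. At 400 mm3 the 4 tumors had 1.08, 7.35, 0.769 and 6.07 CPM, and at 100 mm3 they had 2.65, 1.07, 0.787 and 3.18 CPM. The 12 CT-26 tumors stayed between 20.7 and 33.6 CPM (median 24.4), below each of their cultures, and above every Colon 26 tumor. Colon 26 tumors against cultures gave 1.08 (SE 0.62, adjusted p = 0.13), which became a call without Colon 26 tumor 1 or 3 of 400 mm3 (1.2 each) and without the tumors that stood apart (1.27). The interaction was 1.83 (SE 0.59, adjusted p = 0.013). Exons of Fzd6 overlap those of Gm26704 on the other strand, and how strand was handled in counting is not given in the sources used here. Exons of Wnt5a, Wnt7b, Wnt11, Fzd5, Sfrp2 and Rspo3 also overlap those of a gene on the other strand.

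Fzd3, the other receptor known for axon guidance and cell polarity, lies on the minus strand of chromosome 14 from 65192449 to 65262463. CT-26 cultures had 18.1, 18.1 and 19.99 CPM and CT-26 tumors 10.9 to 23.0 CPM (median 16.8), which overlapped (log2 fold change -0.23, adjusted p = 0.17). Colon 26 cultures had 4.28, 4.16 and 3.91 CPM, and the 12 Colon 26 tumors 0.123 to 1.21 CPM (median 0.501), each below each culture. The fall in Colon 26 was -3.06 (SE 0.43, adjusted p = 1.6e-05, edgeR), and the interaction was -2.83 (SE 0.45, adjusted p = 1.3e-05). Between tumors the models differed by -4.69, -5.04 and -5.33 at 100, 400 and 800 mm3, against -2.14 in culture. In a bulk sample fewer cells of a type and less RNA per cell cannot be told apart.

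Fzd1 was near absent in culture and present in every tumor. It had 0, 5 and 0 counts in the CT-26 cultures and 2, 7 and 4 in the Colon 26 cultures. CT-26 tumors ranged from 1.84 to 8.92 CPM (median 5.67) and Colon 26 tumors from 5.40 to 15.8 CPM (median 10.0). Tumors exceeded cultures by a log2 fold change of 6.28 in CT-26 (SE 0.72, adjusted p = 2.2e-06, edgeR) and by 6.44 in Colon 26 (SE 0.45, adjusted p = 8.7e-09). Without CT-26 culture 2, the only one of that line with a count, CT-26 tumors were at least 87.02-fold higher. The models differed by 0.92 at 100 and 0.87 at 400 mm3, under the minimum for a call. Each passed it without some single libraries: at 100 mm3 without CT-26 tumor 2 (1.17) or Colon 26 tumor 1 (1.09), and at 400 mm3 without CT-26 tumor 2 (1.14) or 4 (1.06).

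Of the remaining receptors, Fzd2 differed in culture, with 13.04, 13.4 and 12.02 CPM in CT-26 and 26.5, 26.1 and 25.8 CPM in Colon 26. In tumors it was at 16.9 to 25.4 CPM (median 19.9) in CT-26 and 14.5 to 25.5 CPM (median 19.6) in Colon 26, and the interaction was -1.12 (SE 0.14, adjusted p = 4.1e-07, edgeR). Fzd7, a receptor of intestinal stem cells, was called lower in Colon 26 at 400 mm3 only, at -1.09, where CT-26 tumors had 49.8, 53.6, 63.4 and 31.0 CPM and Colon 26 tumors 17.3, 27.8, 26.0 and 22.0 CPM. Without CT-26 tumor 3 or Colon 26 tumor 1 of that size it was at -0.94 and -0.97, and without the tumors that stood apart at -0.82. Fzd4 and Fzd5 were called in no comparison, and their mean levels lay between 6.08 and 14.4 CPM in all 8 groups. Fzd8 had no count in a Colon 26 culture and 1 count in all CT-26 cultures together. In tumors it was higher in both models, 27.8 times in CT-26 (95% counting interval 4.91 to 1108) and at least 21.6-fold in Colon 26, with no more than 1.195 CPM in any tumor. Fzd9 and Fzd10 had at most 3 counts in every culture, and in tumors reached 1.18 CPM for Fzd9 in the Colon 26 tumor with the highest muscle sum.

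Among the co-receptors, Lrp5, Lrp6 and Ryk were expressed at 21.3 to 157 CPM in every library and called in no comparison, although Ryk, at 0.93 between cultures, came to 1 and was called without a filter on low counts. Ror2, the tyrosine kinase receptor that binds Wnt5a, had 1 count in all CT-26 cultures together and 1 in all Colon 26 cultures. CT-26 tumors had 0.0384 to 0.928 CPM (median 0.521) and Colon 26 tumors 0.958 to 2.59 CPM (median 1.74), so each Colon 26 tumor was above each CT-26 tumor, whereas the lowest CT-26 tumor overlapped a culture. Tumors had 39.3 times the level of cultures in CT-26 (95% counting interval 6.96 to 1560) and 207 times in Colon 26 (37.0 to 8191). The models differed by a log2 fold change of 1.45 at 100 mm3 (SE 0.25, adjusted p = 0.0014, edgeR), 2 at 400 mm3 and 1.52 at 800 mm3. Ror1 rose in Colon 26 tumors, from 3, 3 and 4 counts in the cultures to 0.152 to 1.195 CPM (median 0.574), a log2 fold change of 2.65 (SE 0.49, adjusted p = 2.0e-04).

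Dkk2, an inhibitor at Lrp5 and Lrp6, was expressed in both lines and rose in CT-26 tumors. CT-26 cultures had 4.47, 5.94 and 4.63 CPM and CT-26 tumors 29.6 to 106 CPM (median 66.2), each above each culture. Colon 26 cultures had 22.2, 21.9 and 23.5 CPM and Colon 26 tumors 27.1 to 52.3 CPM (median 34.7), again with no overlap. Tumors exceeded cultures by 3.64 in CT-26 (SE 0.34, adjusted p = 2.9e-07, edgeR) and by 0.70 in Colon 26 (SE 0.16, adjusted p = 0.0011), under the minimum. The model difference of 2.21 in culture (SE 0.08, adjusted p = 4.8e-13) was -0.91 at 100, -0.88 at 400 and -0.54 at 800 mm3, and the interaction was -2.94 (SE 0.35, adjusted p = 1.3e-07). Colon 26 was called lower at 100 mm3 without CT-26 tumor 1 (-1.07), and at 400 mm3 without Colon 26 tumor 1 (-1.01) or without the tumors that stood apart (-1.07). Dkk1 and Dkk4, the other dickkopf genes that act at these co-receptors, had at most 3 counts in every library.

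**Figure D4:**
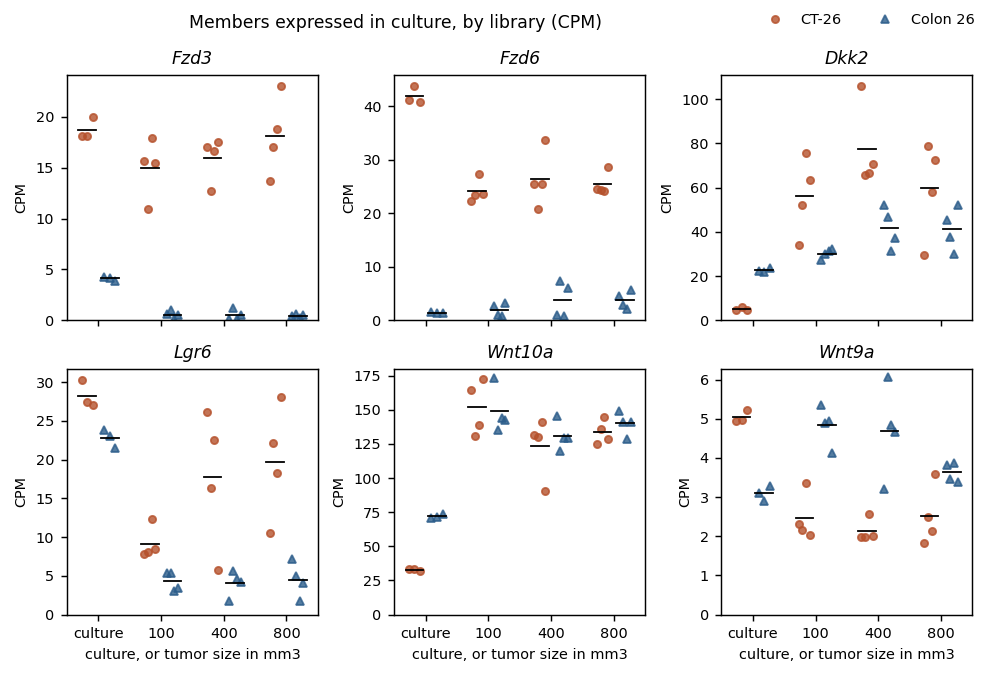
Level in CPM (y axis, linear from 0) of Fzd3, Fzd6, Dkk2, Lgr6, Wnt10a and Wnt9a in each library of CT-26 (circles) and Colon 26 (triangles), by culture or tumor size in mm3, with the group mean as a black bar. Fzd3 in Colon 26 fell from 3.91 to 4.28 CPM in culture to at most 1.21 CPM in tumors, and Dkk2 in CT-26 rose from at most 5.94 to at least 29.6 CPM.

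Dkk3, a divergent relative of the dickkopf inhibitors, had 2, 6 and 2 counts in CT-26 cultures and 5, 6 and 2 in Colon 26 cultures. CT-26 tumors had 1.11 to 4.53 CPM (median 3.46) and Colon 26 tumors 3.87 to 10.9 CPM (median 5.63). Tumors exceeded cultures by a log2 fold change of 4.54 in CT-26 (SE 0.49, adjusted p = 1.1e-06, edgeR) and 5.73 in Colon 26 (SE 0.43, adjusted p = 2.0e-08). Between the models it was called at 400 mm3 only (1.24, adjusted p = 0.056), and this call was lost without CT-26 tumor 1 (1.17) or 3 (0.96) or Colon 26 tumor 2 (1.09) or 3 (1.01). At 100 mm3 it was at 0.89, and called without CT-26 tumor 2 (1.02).

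The secreted frizzled-related proteins Sfrp1, Sfrp2 and Sfrp4 were not expressed in either line. In CT-26 cultures they had 3, 2 and 0 counts in all, and in Colon 26 cultures 0 each. Sfrp1 was at 0.652 to 4.81 CPM (median 1.64) in CT-26 tumors and 3.04 to 17.9 CPM (median 8.39) in Colon 26 tumors. Sfrp2 was at 0.0384 to 11.6 CPM (median 1.33) and 0.287 to 17.0 CPM (median 3.81), and Sfrp4 at 0 to 1.81 CPM (median 0.216) and 0 to 7.64 CPM (median 1.35). The highest Sfrp4 level was that of the Colon 26 tumor with the highest muscle sum. All 3 spread widely within a model, Sfrp2 and Sfrp4 of CT-26 tumors and Sfrp4 of Colon 26 tumors overlapped the cultures, and Sfrp4 had no count in 1 CT-26 tumor and 2 Colon 26 tumors. Over the cultures, CT-26 tumors had 52.9 times the Sfrp1 level (95% counting interval 18.02 to 256.9), 83.3 times that of Sfrp2 (23.0 to 689) and at least 11.2 times that of Sfrp4. Colon 26 tumors were at least 329.8-fold, 179.8-fold and 78.4-fold higher than their cultures, against a floor of 3 counts over the group. Exons of Sfrp2 overlap those of Gm26771 on the other strand.

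Between the models, Sfrp1 was higher in Colon 26 tumors at 100 mm3 (log2 fold change 1.87, SE 0.49, adjusted p = 0.012, edgeR), 400 mm3 (1.59, adjusted p = 0.073, with overlapping tumors) and 800 mm3 (2.17, SE 0.37, adjusted p = 7.5e-04). The call at 400 mm3 was lost without CT-26 tumor 1 (1.31) or 3 (1.28), without Colon 26 tumor 1 (1.38), 2 (1.65) or 3 (1.45), and without the tumors that stood apart (1.06). Sfrp2 was called at 100 mm3 (1.95, SE 0.38, adjusted p = 0.0025) and 800 mm3 (2.14, adjusted p = 0.064). The latter call was lost without CT-26 tumor 2 (2.21), 3 (1.96) or 4 (2.19), without the tumors that stood apart (2.19) and without Colon 26 tumor 2 (0.92), which had 17.0 CPM. Sfrp4 was called at 100 mm3 (2.30, adjusted p = 0.058) and 800 mm3 (3.09, adjusted p = 0.022). At 100 mm3 that call was lost without CT-26 tumor 1 (2.01) or 3 (2.03) or Colon 26 tumor 1 (1.34) or 4 (2.29). Frzb had 2 counts in all Colon 26 cultures and 0.0369 to 0.842 CPM (median 0.218) in Colon 26 tumors, 18.6 times higher (95% counting interval 5.03 to 155.5), and it was not among the calls without the tumors that stood apart. Wif1 and Sfrp5 reached at most 0.674 and 0.573 CPM in a library. The highest levels of Frzb, Wif1 and Sfrp5 were all in the Colon 26 tumor with the highest muscle sum.

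**Figure D5:**
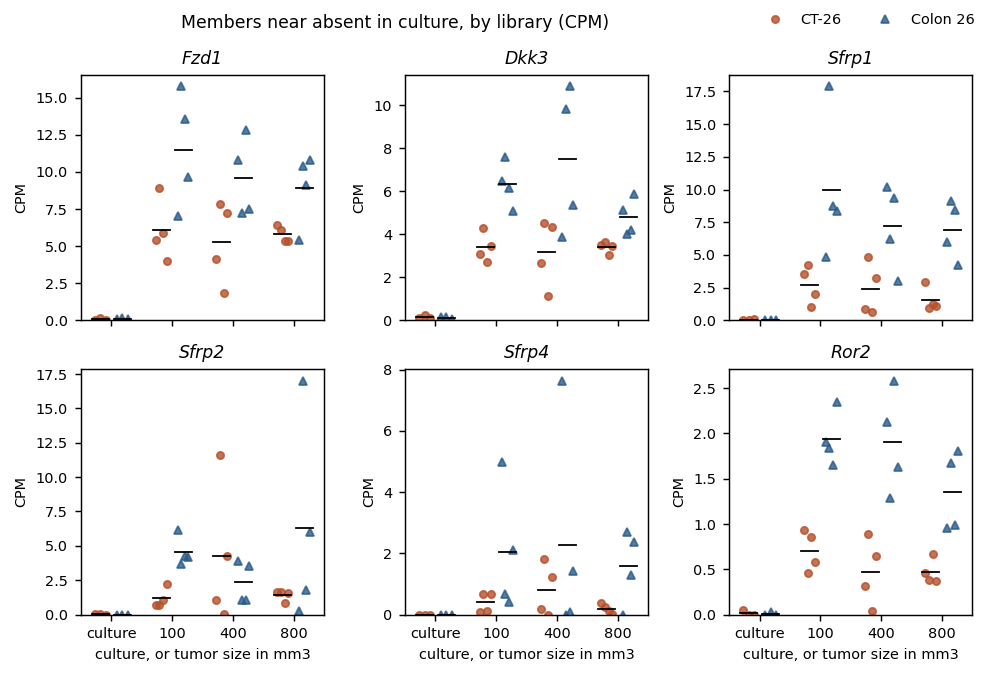
Level in CPM (y axis, linear from 0) of Fzd1, Dkk3, Sfrp1, Sfrp2, Sfrp4 and Ror2 in each library of CT-26 (circles) and Colon 26 (triangles), by culture or tumor size in mm3, with the group mean as a black bar. All cultures lay at or near 0. The lowest circle at 400 mm3 was the same tumor in all 6 panels.

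CT-26 tumor 3 of 400 mm3, the tumor with the fewest leukocyte transcripts, had the lowest level among the 12 CT-26 tumors of all 6 genes that were not expressed in culture. Its values were 1.84 CPM for Fzd1, 1.11 CPM for Dkk3, 0.652 CPM for Sfrp1, 0.0384 CPM for Sfrp2 and for Ror2, and no count of Sfrp4. The 11 fibroblast markers also summed lowest there, at 2462 CPM against up to 4411 CPM, and the pericyte and smooth muscle markers at 36.0 CPM. Single markers were divided, and Lum, Col1a1, Col1a2, Col3a1, Fap, Postn and Rgs5 were lowest in this tumor. Pdgfra, Dcn, Dpt, Pi16, Kcnj8, Abcc9, Notch3, Myh11 and Cspg4 were lowest in CT-26 tumor 1 of 100 mm3. So was the endothelial sum, at 75.7 CPM against 88.0 CPM in tumor 3 of 400 mm3. Thy1 and Acta2 were lowest in other CT-26 tumors. Of the 15 members expressed in both CT-26 cultures and CT-26 tumors, tumor 3 of 400 mm3 had the lowest level of 1, Fzd4 at 3.30 CPM, and the highest level of 2, Fzd7 and Ryk. This tumor was singled out after its values were seen, so the counts are a description and no test was made.

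Sums of fibroblast and pericyte markers were also higher in Colon 26 tumors of 100 mm3, but Colon 26 cultures expressed part of both lists. Among fibroblast markers near absent in culture, Lum and Thy1 had higher means over all Colon 26 tumors, and Dpt a lower one. The means were 13.2 and 26.8 CPM for Lum, 39.8 and 47.7 CPM for Thy1, and 18.1 and 10.3 CPM for Dpt, in CT-26 and Colon 26 tumors. Dcn, of the same list, had means of 240.5 and 62.8 CPM. At 100 mm3 the fibroblast list summed to 3198 to 4411 CPM in CT-26 and 4733 to 5678 CPM in Colon 26 tumors. Of its 11 genes 5 were called higher and 1 lower in Colon 26, where 6.17% and 7.06% of all genes tested were. The pericyte list summed to 38.2 to 127 and 154 to 212 CPM, with 2 of 7 called higher, although Colon 26 cultures already held 79.1 to 85.7 CPM of it. Endothelial sums overlapped, at 75.7 to 245 and 135 to 185 CPM, and so did leukocyte sums, at 534 to 1049 and 733 to 988 CPM. At 800 mm3 the fibroblast sums overlapped, at 2696 to 3723 CPM in CT-26 and 3137 to 5623 CPM in Colon 26. The part of these markers in the higher Sfrp1, Sfrp2, Sfrp4 and Ror2 levels of Colon 26 tumors was not tested, and RNA of host cells cannot be told apart from RNA that tumor cells made only in the animal.

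No R-spondin was expressed in any group, and the highest level of Rspo1 to Rspo4 in a library was 0.269 CPM, for Rspo1 in the Colon 26 tumor with the highest muscle sum. The receptors Lgr4 and Lgr6 were expressed in both lines, and Lgr5, the marker of intestinal stem cells, had at most 3 counts in every culture and at most 0.682 CPM in a tumor. Lgr6 was at 30.3, 27.4 and 27.0 CPM in CT-26 cultures and 23.8, 23.1 and 21.5 CPM in Colon 26 cultures. CT-26 tumors ranged from 5.77 to 28.1 CPM (median 14.3) and overlapped their cultures, whereas Colon 26 tumors at 1.72 to 7.15 CPM (median 4.35) did not. The fall in Colon 26 tumors was -2.44 (SE 0.29, adjusted p = 2.5e-06, edgeR), and the interaction was -1.48 (SE 0.49, adjusted p = 0.015). The change in CT-26 was -0.97 (SE 0.30, adjusted p = 0.011), and passed the minimum without CT-26 tumor 3 of 100 mm3, 1 or 3 of 400 mm3 or 4 of 800 mm3 (-1.01 to -1.05), and without the tumors that stood apart (-1.08). Lgr6 was lower in Colon 26 tumors at all 3 sizes (-1.09, -2.14 and -2.15), but not at 100 mm3 without CT-26 tumor 3 (-0.90) or Colon 26 tumor 3 (-0.94) or 4 (-0.99).

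Counted over the members, 12 of 25 tested were called between CT-26 tumors and cultures, 11 higher and 1 lower, where 32.2% of the 16330 genes tested were called (22.7% higher and 9.52% lower). In Colon 26, 15 of 30 were called, 13 higher and 2 lower, where 27% of 16379 genes were called (21.1% higher and 5.81% lower). DESeq2 called 15 members in CT-26 and 22 in Colon 26, and edgeR without a filter on low counts 17 and 20, and the members added in Colon 26 by both were the low genes Lgr5, Rspo1, Rspo3, Wnt1 and Wnt16. In CT-26 the higher genes were Wnt5a, Wnt6, Wnt10a, Fzd1, Fzd8, Ror2, Dkk2, Dkk3, Sfrp1, Sfrp2 and Sfrp4. In Colon 26 they were Wnt2, Wnt2b, Wnt6, Wnt11, Fzd1, Fzd8, Ror1, Ror2, Dkk3, Sfrp1, Sfrp2, Sfrp4 and Frzb. Wnt2 and Wnt11 had no count in any culture, and in Colon 26 tumors had 0.0361 to 0.836 CPM and 0.0758 to 0.687 CPM, at least 14.1-fold and 17.5-fold higher. Members tested only because tumors held them could differ in 1 direction alone, so these shares are a description. On log2(FPKM + 1) 3 of the CT-26 and 6 of the Colon 26 calls passed, and the low genes Ror2, Sfrp4 and Fzd8 were lost in both. Also lost were Wnt5a, Wnt6, Wnt9a, Dkk3, Sfrp1 and Sfrp2 in CT-26, and Wnt2, Wnt2b, Wnt11, Fzd3, Ror1 and Frzb in Colon 26.

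Between tumors of the models, 13 of 28 members tested were called at 100 mm3, 12 of 26 at 400 mm3 and 11 of 27 at 800 mm3, where 13.2% (6.17% higher, 7.06% lower), 14.3% (6.48% and 7.79%) and 14.1% (6.5% and 7.62%) of all genes tested were called. At 100 mm3 Wnt5b, Wnt11 and Ror1 were low in CT-26, and Fzd3 in Colon 26, and passed the filter through the other model. Such members could differ in 1 direction alone, so these shares are a description. Called at all 3 sizes were Wnt5a, Wnt5b, Wnt6, Wnt10b, Ror2 and Sfrp1, which were higher in Colon 26, and Fzd3, Fzd6 and Lgr6, which were lower. Of these, Wnt5b, Ror2 and Sfrp1 were called at no size with limma on log2(FPKM + 1), and Lgr6 was not called at 100 mm3. The model difference changed between culture and tumors in 10 of 30 members tested, 4 upward and 6 downward, where 17.3% of 17139 genes did (8.71% upward and 8.61% downward). With limma on log2(FPKM + 1) only 2 of these 10 were still called, Wnt10a and Dkk2, and on log2(FPKM + 0.1) all 10. With the filter on low counts and all tumors, Wnt2 and Wnt11 were too low to be tested at 800 mm3. Without the tumors that stood apart, Wnt2 (2.84, adjusted p = 0.021, edgeR) and Wnt11 (3.67, adjusted p = 9.6e-04) were called higher in Colon 26. Both were also called after leaving out any 1 CT-26 tumor of that size, with DESeq2, and without the filter. The change was thus not particular to the tumors that stood apart. When 1 Colon 26 tumor of 800 mm3 was left out, Wnt2 alone was called without tumor 1 and Wnt11 alone without tumor 3. Neither was called without tumor 2 or 4. Both genes passed the filter through Colon 26 and could only be called higher there. At 100 mm3 Wnt11 (1.5, adjusted p = 0.0059, edgeR) and Ror1 (1.88, adjusted p = 0.027) were called higher in Colon 26. With tumor size no member was called. Between 100 and 800 mm3 edgeR called 0 of 25 members in CT-26 and 0 of 30 in Colon 26, where 0% of 15646 and 0.338% of 15666 genes (0.0766% higher and 0.262% lower) were called. At an unadjusted p under 0.05, 2 members stood in CT-26, Lgr6 (log2 fold change 1.10) and Wnt5a (0.86), and 6 in Colon 26, with values from -0.42 for Fzd2 to 0.44 for Dkk2. DESeq2 also called 0 in both, with 3 and 7 at an unadjusted p under 0.05. The change with size differed between the models in 0 of 30 members (0.0485% of 16487 genes, 0.0243% upward and 0.0243% downward), with 3 at an unadjusted p under 0.05 by edgeR and 0 called and 4 by DESeq2.

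Other genes of the pathway were counted from 3 lists, over all model and tissue comparisons. Of the secretion genes Porcn, Wls and Notum, 2 were tested and neither was called in any of them. Of 20 transduction genes 17 were tested in culture, and the co-receptor Ptk7 alone was called, where 22.9% of all genes were. It was at 20.3, 22.1 and 21.7 CPM in CT-26 and 128, 131 and 135 CPM in Colon 26. Ptk7 was called higher in Colon 26 at each tumor size too. Of 13 transcriptional feedback targets 6 were tested in culture, 3 were higher in Colon 26 (Axin2, Apcdd1 and Tcf7), and 1 was lower (Lef1), where 10.6% and 12.3% of all genes were. These counts are a description, since Axin2 and Tcf7 had at most 3 counts in each CT-26 culture. Both could enter the test only by being higher in Colon 26. Axin2, an inhibitor of the pathway that β-catenin induces, had 0.140, 0.0371 and 0.0417 CPM in CT-26 cultures and 5.01, 4.77 and 4.61 CPM in Colon 26 cultures, 69.3 times higher (95% counting interval 29.5 to 214).

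The model difference of Axin2 was smaller in tumors (interaction -3.29, SE 0.35, adjusted p = 2.4e-08, edgeR), with 0.176 to 0.470 CPM (median 0.272) in CT-26 and 1.51 to 3.30 CPM (median 1.82) in Colon 26, which did not overlap. In Colon 26 it fell from culture to tumor by 1.29 on the log2 scale (SE 0.12, adjusted p = 1.5e-07, edgeR). Apcdd1, a membrane inhibitor of the pathway, was at 5.87, 6.01 and 4.84 CPM in CT-26 and 54.8, 49.3 and 53.2 CPM in Colon 26 cultures, and the models differed by 2.30 at 100 mm3. Lef1 was at 4.24, 4.08 and 5.68 CPM in CT-26 and 1.38, 0.987 and 1.196 CPM in Colon 26 cultures, and the models differed by -2.39 at 100 mm3. Nkd2, which binds dishevelled proteins, had no count in Colon 26 cultures and 0.627 to 2.09 CPM (median 1.42) in Colon 26 tumors, at least 54.3-fold higher.

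Between tumors and cultures, 3 transduction genes were higher and 1 lower of 18 tested in CT-26, and 3 were higher of 19 in Colon 26, where 22.7% of all genes were higher and 9.52% lower in CT-26 and 21.1% were higher in Colon 26. These shares lie near or below those of all genes. The transcription factor gene Tcf7l2 rose in both, from a mean of 4.39 to 17.4 CPM in CT-26 (log2 fold change 1.95, adjusted p = 3.0e-09, edgeR) and from 7.12 to 14.7 CPM in Colon 26 (1.01, adjusted p = 2.8e-07). Its relative Tcf7l1 had 4 and 3 counts in all cultures of each line and was 13.9 times (95% counting interval 5.37 to 51.5) and 45.5 times higher in tumors (15.4 to 221). Gsk3b, a kinase that marks β-catenin for degradation, fell in CT-26 from a mean of 158 to 72.8 CPM (-1.15, SE 0.06, adjusted p = 2.0e-09), and in Colon 26 its log2 fold change was -0.92, under the minimum. Ptk7 rose in CT-26 tumors, to 30.5 to 61.3 CPM with a median of 46.9 (adjusted p = 1.9e-05, edgeR). Pygo1 was called in Colon 26 alone, at least 11.2-fold higher, and the difference between the models in this respect was not tested. Of the feedback targets Axin2, Tcf7 and Apcdd1 were higher in CT-26 tumors, of 6 tested, and Tcf7, Nkd2 and Ascl2 were higher and Axin2 lower in Colon 26 tumors, of 8 tested. Genes of these lists that were near absent in culture, such as Tcf7l1, Pygo1 and Nkd2, could only be called higher in tumors. The counts are thus a description. In CT-26 Tcf7 was lowest in tumor 3 of 400 mm3, at 0.192 CPM against 0.779 CPM or more in the other tumors. Tcf7 is also expressed by T cells, whose markers Cd3e and Cd8a were lowest in other CT-26 tumors. These were tumor 4 of 800 mm3 for Cd3e (0.904 CPM) and tumor 4 of 100 mm3 for Cd8a (1.17 CPM). Which cells the Tcf7 transcripts came from was not tested.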

How the data were processed

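RNA-seq (TruSeq libraries of poly-A RNA, paired ends of 150 bases on a HiSeq X) was analysed from 30 libraries in 8 groups. Tumor replicates were numbered in accession order. The authors deposited estimated counts per gene and FPKM, both made with Array Studio 10.0.1.118 and Ensembl release 78, and their processing notes name DESeq2 1.24.0. The aligner, genome build and strand setting are not given in the sources used here. Fractions were common (21.9% of values above 0 departed from a whole number by over 0.0001), so the estimated counts were rounded before fitting. Deposited FPKM values followed count over length and total, with this ratio varying by under 1% for 72.0% of well-counted genes.

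Gene identifiers were matched to symbols in GENCODE M21 (97.7% of 53431). Counts were fitted with edgeR 4.0.16 in R 4.3.3 (quasi-likelihood test, TMM normalisation, filterByExpr, Benjamini-Hochberg adjustment over all genes tested), with only the groups compared in each fit and all 30 libraries for the interaction of model with tissue. The interaction asks whether the model difference of tumors departs from that of cultures. Alternatives used DESeq2 1.42.0 and limma 3.58.1. The fits were also run on simulated counts, with the same dispersion for all genes and changes set only in genes that were not low. That run does not cover the spread between these tumors, or genes near absent in a group. A gene was expressed at a mean of at least 1 CPM. Where a group was near absent, folds are ratios of counts with exact 95% intervals, or, with no count, bounds from 3 counts over the group. These cover counting error only. Replicate pairs differed by 3.226 to 87.02 times the counting variance, so no library was taken as a repeat of another.

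All 50 members were accounted for. For members with a mean of at least 1 CPM in a group and a call in a comparison, values were given for each culture and, over the 12 tumors of a model, as the lowest, median and highest, the others by counts and ranges, and pathway genes from 3 lists by counts with values for those called. The members and lists were chosen with earlier results of these data known.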

Additional observations from a re-analysis of the deposited data

Results flagged for a closer look

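Among 133 sets of 4 tumors of 1 gene and group, 9 held a tumor whose gap to its nearest neighbour, as a share of the range, exceeded Dixon's 95% critical value, which chance alone passes in about 1 of 20 sets. In CT-26 tumors of 100 mm3 these were tumor 4 for Lgr4 (9.334 CPM) and tumor 3 for Lgr6 (12.28 CPM). At 400 mm3 they were tumor 3 for Wnt9a (2.571 CPM) and tumor 1 for Dkk2 (106.1 CPM), and at 800 mm3 tumor 4 for Fzd6 (28.73 CPM), tumor 1 for Sfrp1 (2.914 CPM) and tumor 3 for Sfrp2 (0.8424 CPM). In Colon 26 they were tumor 3 of 100 mm3 for Lgr4 (8.913 CPM) and tumor 1 of 400 mm3 for Wnt2b (1.549 CPM).

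The difference between Colon 26 and CT-26 changed between culture and tumors, by the test of the interaction in edgeR, in 10 genes. On the log2 scale the change was 1.75 for Wnt2b, 1.58 for Wnt9a, 1.09 for Wnt10b and 1.83 for Fzd6, and it was -3.95 for Wnt5a, -1.09 for Wnt10a, -1.12 for Fzd2, -2.83 for Fzd3, -2.94 for Dkk2 and -1.48 for Lgr6. For Wnt10b it was 0.99 without CT-26 tumor 3 of 400 mm3 and 0.96 without CT-26 culture 3, both under the minimum for a call.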

How the results depend on the processing

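No paired analysis was possible because the labels give the samples no replicate number that ties a sample of one group to one of another. Over all alternatives, 6567 values kept their direction and their side of the threshold, 92 fell below it, 90 rose above it and 2 changed sign. With limma on log2(FPKM + 1) the members called numbered 5 between cultures, 6 between tumors at each size, 3 between CT-26 tumors and cultures, 6 in Colon 26 and 3 for the interaction. Of these 3, 2 were also called by edgeR, and Wnt6 was gained. The interactions of Wnt2b, Wnt5a, Wnt9a, Wnt10b, Fzd2, Fzd3, Fzd6 and Lgr6 were lost. Without a minimum fold change they numbered 18 between cultures, 22 at 100 mm3, 20 at 800 mm3, 19 in CT-26, 25 in Colon 26 and 1 between Colon 26 tumors of 800 and 100 mm3 (Fzd2). The interaction of Wnt6 turned from -0.20 to 1.52 on log2(FPKM + 1) and 1.27 on log2(FPKM + 0.1), and the cause was not tested. Leaving out 1 library at a time gave 10 members called between cultures, 12 to 15 at 100 mm3, 10 to 14 at 400 mm3, 10 to 13 at 800 mm3, 12 to 13 in CT-26, 15 to 17 in Colon 26, 9 to 10 for the interaction and 0 with size. At an adjusted p of 0.05 Sfrp4 at 100 mm3, Dkk3 and Sfrp1 at 400 mm3 and Sfrp2 at 800 mm3 were not called. Without the 4 tumors that stood apart, an alternative chosen after seeing the data, 13, 11 and 12 members were called by size, 13 in CT-26 and 16 in Colon 26.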
